A study of Homo sapiens with 6 samples.

Results

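A set of 10 genes that govern how long an mRNA keeps its poly(A) tail was read out in FaDu cells treated with the compound BB608 and in FaDu cells given its vehicle, DMSO. The set was ZFP36, ZFP36L1 and ZFP36L2, then BTG1, BTG2, BTG3, TOB1 and TOB2, then FAM46A and FAM46C. These 10 genes were taken from 20660 gene names and accounted for 26 of 82428 coding sequences, every one whose gene name equals a name in this list. The genes were chosen by family, and partly selected on their FPKM values and the authors' q in this same contrast, so these values describe them and are not tested here. FaDu is a head and neck squamous cell carcinoma line, and the series text gives 3 biological replicates of BB608-treated cells and 3 of DMSO-treated cells, 6 libraries in all. The labels name no other agent or genetic change in either group, and neither a dose nor a treatment time is given in the sources used here.

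ZFP36 proteins, also called the tristetraprolin family, bind AU-rich elements in the 3′ untranslated regions of short-lived mRNAs and bring the CCR4-NOT deadenylase complex to them, which shortens the poly(A) tail and leads to decay. BTG and TOB proteins are antiproliferative adaptors that bind the deadenylase subunits CNOT7 and CNOT8 through a shared domain, and TOB proteins also bind the poly(A) binding protein PABPC1. FAM46 proteins, now named TENT5, are cytoplasmic poly(A) polymerases that act the other way and lengthen tails. Several of these genes, ZFP36 and BTG2 among them, are immediate-early genes whose own mRNAs are made in a short burst and then decay.

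For every coding sequence the deposited table holds a single FPKM value (fragments normalised to transcript length and to the mapped total) for BB608 and a single value for DMSO, each pooled by the authors over 3 libraries. The spread between libraries is therefore not shown, and no value below carries an SD. The sum of a gene's FPKM values over its coding sequences is called the gene sum here, and each log2 fold is the log2 ratio of BB608 over DMSO. For a tested coding sequence an implied SE of the log2 fold was derived from its test statistic in the authors' deposited table. The scale came from a ratio common to all rows, taken from the p-values of that table. A coding sequence counted as called where the authors' q was under 0.05. The background of all genes was 10850 genes that have a tested coding sequence and reach 1 FPKM by gene sum in either group. The total FPKM was 502310 in BB608 and 490497 in DMSO, the median log2 fold of these genes was 0.03, and their quartiles were -0.09 and 0.18. Squamous markers fitted the label of the line, with KRT5 at 2472 FPKM in BB608 and 2334 FPKM in DMSO, and TP63 at 35.3 FPKM in BB608 and 32.1 FPKM in DMSO. Of 10 markers of other cell types in the table, CD68 was measured at 20.3 FPKM in BB608 and 22.9 FPKM in DMSO, and the others did not exceed 0.690 FPKM in either group.

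All 10 genes were detected. By gene sum 8 were lower in BB608 than in DMSO and 2 were higher, with a median log2 fold of -0.28 and a range from -1.68 to 0.76. Among all 10850 genes, 4605 were lower, which is 42.4%. Summed over the 10 genes, the level was 85.1 FPKM in BB608 and 102 FPKM in DMSO. In these bulk samples, fewer cells that express a gene and less RNA per cell cannot be told apart. FAM46C and BTG2 had the lowest folds, FAM46A and BTG1 were intermediate, and the ZFP36 genes and TOB1 lay closer to 0. The authors' deposited table called 2 of the 20 tested coding sequences, those of FAM46C and BTG2, both lower. Across all 34474 tested coding sequences it called 122, which is 0.354%, and 73 of them were lower, which is 0.212%. Since the genes were chosen with these values known, nothing is read from the difference between those shares. Before adjustment, the authors' deposited table gives a p below 0.05 for 5 coding sequences of these genes, 4 lower and 1 higher, beside 1140 or 3.31% of all tested coding sequences.

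**Figure D1:**
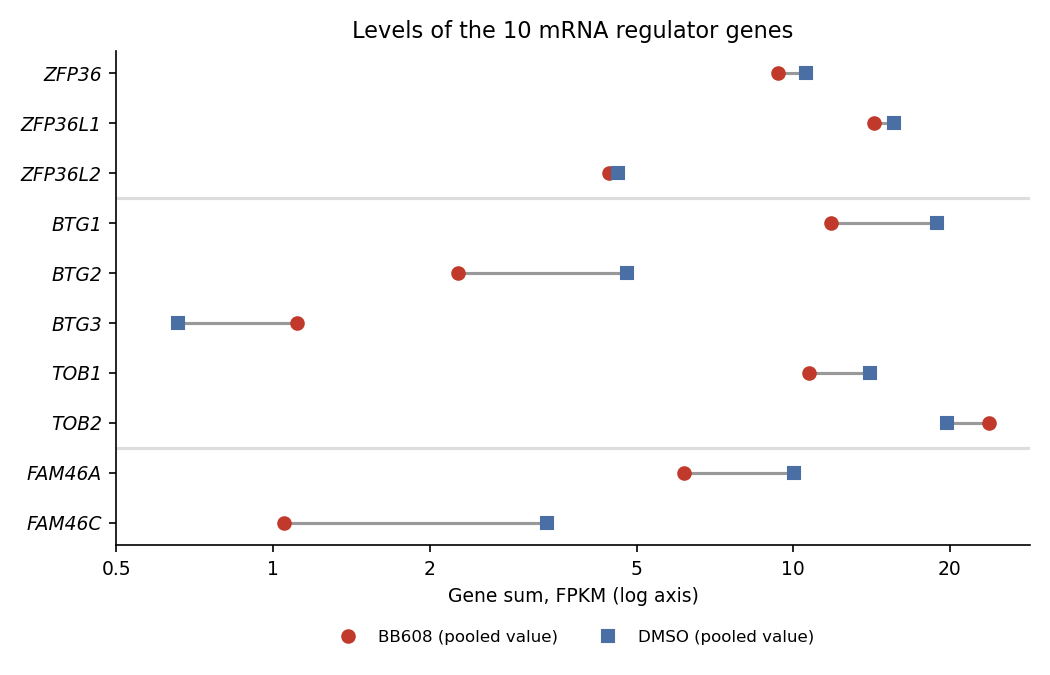
Gene sums of the 10 genes in FPKM (log axis), each a value the authors pooled over 3 libraries, with circles for BB608 and squares for DMSO, and lines between families. FAM46C stood at 1.05 FPKM in BB608 and 3.36 FPKM in DMSO, BTG2 at 2.27 FPKM in BB608 and 4.79 FPKM in DMSO, and TOB2 and BTG3 were the 2 genes that stood higher in BB608.

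The levels spanned a wide range. In BB608 the order was TOB2, ZFP36L1, BTG1, TOB1, ZFP36, FAM46A, ZFP36L2, BTG2, BTG3 and FAM46C, and in DMSO it was TOB2, BTG1, ZFP36L1, TOB1, ZFP36, FAM46A, BTG2, ZFP36L2, FAM46C and BTG3. The pairs that changed places were BTG1 with ZFP36L1, BTG2 with ZFP36L2 and FAM46C with BTG3. Without values per library it cannot be said which neighbours in these orders differ beyond their spread. Against all 10850 genes in DMSO, TOB2 and BTG1 lay above 64.0% and 63.1% of genes, while FAM46C lay above 21.2% and BTG3 above 0.922%. BTG3 reached the minimum of 1 FPKM only in BB608, at 1.11 FPKM, so its place near the bottom in DMSO follows from that filter.

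The mRNAs of the ZFP36 family carry the kind of element that their proteins bind. The sequence TTATTTATT, in which the core TATTTAT of the binding site is flanked by T, was found in the longest annotated 3′ untranslated region of 3 of the 3 ZFP36 genes and of none of the 7 BTG, TOB and FAM46 genes, against 1560 of 19572 genes with an annotated 3′ untranslated region, or 7.97%. The 3 sites are shown because they mark where these mRNAs resemble the targets of their own proteins, with the element in capitals, 5′ to 3′ on the transcribed strand, in GRCh38 with the GENCODE 29 annotation. They lie at chr19:39409196-39409224 on the plus strand, chr14:68788077-68788105 on the minus strand and chr2:43223448-43223476 on the minus strand.
ZFP36: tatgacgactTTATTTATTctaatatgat
ZFP36L1: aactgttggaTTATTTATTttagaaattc
ZFP36L2: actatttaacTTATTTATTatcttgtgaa
ZFP36 holds 3 copies of the core TATTTAT in a region of 713 bases, ZFP36L1 holds 3 in 2828 bases and ZFP36L2 holds 3 in 1917 bases. A match is a description of the sequence and does not show that a protein binds there.

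ZFP36, the founding member of the family, had a gene sum of 9.36 FPKM in BB608, against 10.6 FPKM in DMSO, a log2 fold of -0.17. In hg19 it lies on chromosome 19 from 39897452 to 39900181, with 4 tested coding sequences, none of them called. The most abundant had 4.72 FPKM in BB608 and 5.29 FPKM in DMSO, a log2 fold of -0.17 with an implied SE of 0.21. The next had 2.58 FPKM in BB608 and 3.85 FPKM in DMSO, a log2 fold of -0.57 with an implied SE of 0.37. Both were lower in BB608 by less than 2 implied SE, and the ZFP36 gene sum was 88.6% of its vehicle level. The least abundant coding sequence was listed at 0.713 FPKM in BB608 and 8.91e-10 FPKM in DMSO, where the authors' deposited table gives p = 0.153. Without coding sequences under 1 FPKM, which leaves this one out, the log2 fold of the ZFP36 sum was -0.29.

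ZFP36L1, a paralog with the same tandem zinc fingers, had a gene sum of 14.3 FPKM in BB608 and 15.6 FPKM in DMSO, a log2 fold of -0.13. In hg19 it lies on chromosome 14 from 69254367 to 69263326, with 6 coding sequences of which 4 were tested. Its main coding sequence had 8.17 FPKM in BB608 and 10.8 FPKM in DMSO, a log2 fold of -0.40 with an implied SE of 0.14, and the authors' deposited table gives p = 0.00695 and q = 0.751. The gene sum hid part of that difference, because a minor coding sequence was listed at 1.90 FPKM in BB608 and 0.00106 FPKM in DMSO, with p = 0.102 in the authors' deposited table. The share of the gene sum held by the main coding sequence was 57.1% in BB608 and 69.0% in DMSO. How Cufflinks divided the reads among overlapping coding sequences bears on such a shift, and its part was not tested.

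ZFP36L2, the third paralog, had 4.42 FPKM in BB608 and 4.61 FPKM in DMSO from its single coding sequence, a log2 fold of -0.06 with an implied SE of 0.25. It showed the smallest difference of the 10 genes, and its fold was -0.12 after quantile normalization. The table places it in a locus of chromosome 2 that spans 43393799 to 43823185 in hg19 and also holds THADA, which had a gene sum of 11.9 FPKM in BB608 and 9.04 FPKM in DMSO. As a family the ZFP36 genes summed to 28.1 FPKM in BB608 and 30.8 FPKM in DMSO. Of their 9 tested coding sequences 0 were called, beside 0.354% of all tested, and 1 had an unadjusted p under 0.05, beside 3.31% of all tested.

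**Figure D2:**
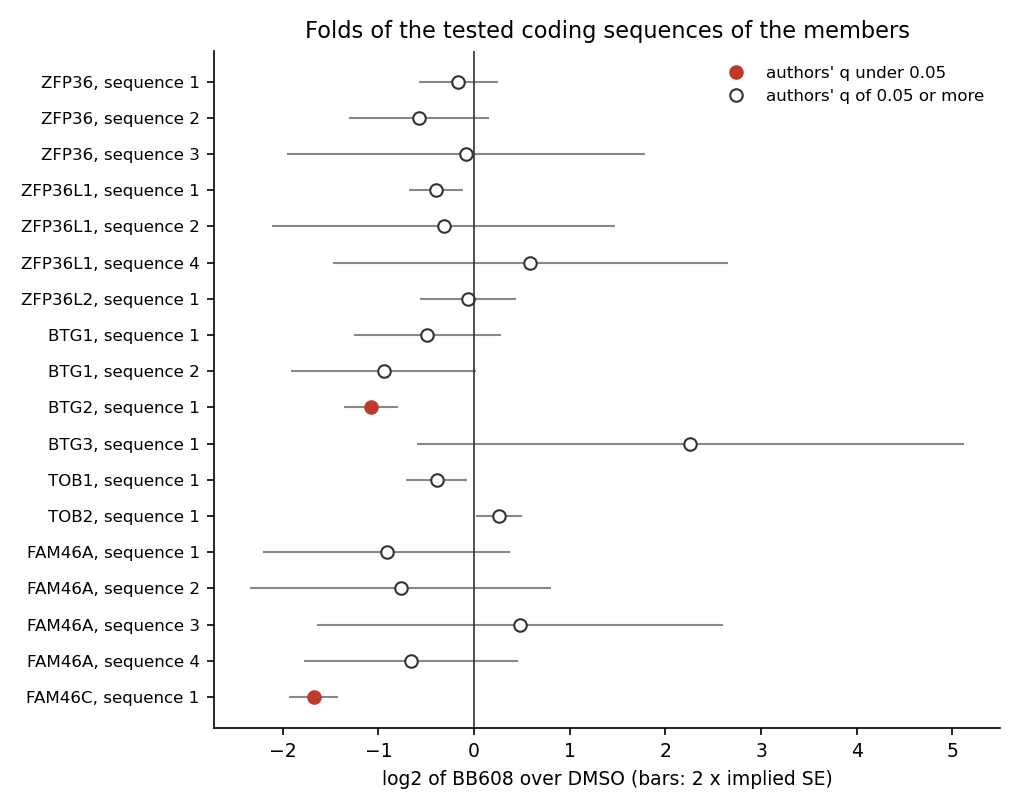
Log2 fold of BB608 over DMSO for 18 tested coding sequences of the 10 genes, numbered within each gene from the most abundant, with bars of 2 implied SE to each side; 2 with a value near 0 in DMSO are not drawn, and filled points are called in the authors' deposited table. The bars of FAM46C and BTG2 are short and far from 0. Each bar uses the statistic of its coding sequence and a ratio common to all rows, not its own p. FAM46C and BTG2 sit at the smallest p of the authors' deposited table, and rows at that p were left out of the ratio. The bar of BTG3, with an implied SE of 1.43, and those of FAM46A, with 0.65 for its most abundant coding sequence, are wide.

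In the BTG and TOB family, BTG2 and BTG1 were lower in BB608 by gene sum, TOB1 was lower by a smaller margin, and TOB2 was higher. The gene sum of BTG3 was also higher, but its coding sequences ran in both directions. BTG2, a p53-inducible and immediate-early antiproliferative gene, had 2.27 FPKM in BB608 and 4.79 FPKM in DMSO, so that 47.4% of the vehicle level was left. Its single coding sequence had a log2 fold of -1.08 with an implied SE of 0.14 and q = 0.0154 in the authors' deposited table. That q is the smallest the table holds, because its p of 5e-05 is the smallest Cuffdiff gave. The locus is compact, 203274618 to 203278730 on chromosome 1 of hg19, and no other gene of the table shares it. Only 1.15% of the 10850 genes had a lower fold than BTG2.

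BTG1, its close paralog and like it a partner of CNOT7 and CNOT8, had a gene sum of 11.8 FPKM in BB608 and 18.9 FPKM in DMSO, a log2 fold of -0.68. In FPKM this was the largest difference among the 10 genes. Both of its coding sequences were lower in BB608. The more abundant had 7.44 FPKM in BB608 and 10.4 FPKM in DMSO, with a log2 fold of -0.49 and an implied SE of 0.38, and the other had 4.40 FPKM in BB608 and 8.48 FPKM in DMSO, with a log2 fold of -0.95 and an implied SE of 0.49. In the authors' deposited table their p-values are 0.199 and 0.0772, so neither was called. The locus, 92378755 to 92583436 on chromosome 12 of hg19, also holds RP11-24B21.1, at 0.0963 FPKM in BB608 and 0.244 FPKM in DMSO.

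TOB1, which binds both the deadenylase subunits and PABPC1, had 10.7 FPKM in BB608 and 14.1 FPKM in DMSO. Its coding sequence had a log2 fold of -0.39 with an implied SE of 0.16, and in the authors' deposited table p = 0.0119 and q = 0.950, so it was not called. TOB2, the most abundant of the 10 genes, stood on the other side, with a gene sum of 23.8 FPKM in BB608 and 19.7 FPKM in DMSO and a log2 fold of 0.27. Its main coding sequence had a log2 fold of 0.26 with an implied SE of 0.12, and the authors' deposited table gives p = 0.0260 and q = 0.997. The pair of TOB paralogs thus lay on opposite sides of 0, but the difference between their folds was not tested. TOB1 lies at 48938292 to 48987593 on chromosome 17 and TOB2 at 41828612 to 41843027 on chromosome 22 of hg19.

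BTG3 was the least abundant of the 10 genes in DMSO, with a gene sum of 1.11 FPKM in BB608 and 0.656 FPKM in DMSO and a log2 fold of 0.76. Of its 3 coding sequences on chromosome 21, 18965898 to 18985265 in hg19, the authors tested 1, at 0.861 FPKM in BB608 and 0.179 FPKM in DMSO. Its log2 fold of 2.26 came with an implied SE of 1.43, and the authors' deposited table gives p = 0.266. The other main coding sequence ran the opposite way, at 0.252 FPKM in BB608 and 0.477 FPKM in DMSO. At these levels the fold of BTG3 depends on which coding sequences are counted, and no direction is read from it. Over the family the sums were 49.8 FPKM in BB608 and 58.1 FPKM in DMSO, with a median log2 fold of -0.39 over its 5 genes. Of its 6 tested coding sequences 1 was called, that of BTG2, beside 0.354% of all tested coding sequences.

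**Figure D3:**
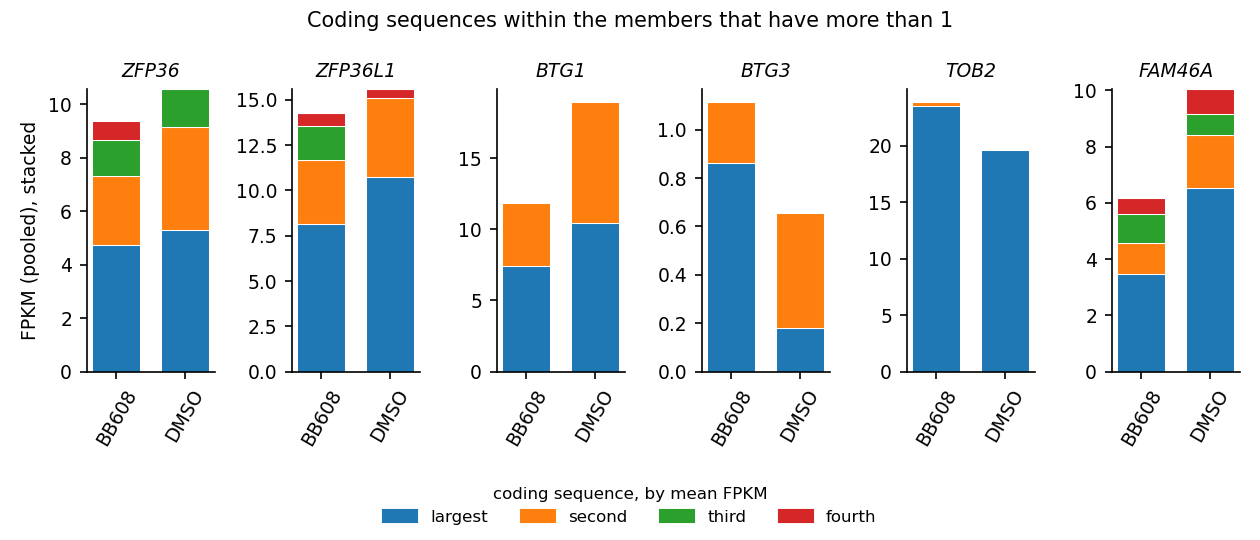
FPKM of each coding sequence stacked to the gene sum, with BB608 left of DMSO, for the 6 genes that have more than 1 coding sequence; each panel has its own axis. The largest coding sequence of ZFP36L1 held 57.1% of the gene sum in BB608 and 69.0% in DMSO, and that of BTG3 held 77.4% in BB608 and 27.3% in DMSO.

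The poly(A) polymerase genes of the FAM46 family were lower in BB608. FAM46C, which is also known as a tumour suppressor in multiple myeloma, had 1.05 FPKM in BB608 and 3.36 FPKM in DMSO, so that 31.2% of the vehicle level was left. The log2 fold of its single coding sequence was -1.68 with an implied SE of 0.13, and the authors' deposited table gives q = 0.0154. With a pseudocount of 1 FPKM, which understates folds at this level, it was -1.09. It ranked 46 from the lowest of 10850 genes by fold, and its locus, 118148555 to 118170994 on chromosome 1 of hg19, is shared with no other gene of the table. It stood at the bottom of the level order in BB608, and the number of fragments behind that value is unknown.

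FAM46A, a paralog linked to bone fragility when mutated, had a gene sum of 6.17 FPKM in BB608 and 10.05 FPKM in DMSO, a log2 fold of -0.70. Its reads were divided among 5 coding sequences at 82201155 to 82462491 on chromosome 6 of hg19, of which 4 were tested and none was called. The most abundant had 3.47 FPKM in BB608 and 6.52 FPKM in DMSO, a log2 fold of -0.91 with an implied SE of 0.65. The next had 1.12 FPKM in BB608 and 1.90 FPKM in DMSO, a log2 fold of -0.77 with an implied SE of 0.79. Of the 4 tested coding sequences 3 were lower and 1 was higher, and none differed from 0 by more than 2 implied SE. The gene sum was as low relative to DMSO as that of BTG1, and ranked 290 from the lowest where BTG1 ranked 309.

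FAM46B, the remaining measured paralog and not among the 10 genes, had 0.754 FPKM in BB608 and 1.41 FPKM in DMSO. The authors' deposited table called it lower too, with a log2 fold of -0.90, an implied SE of 0.19 and q = 0.0154. FAM46D and BTG4 are listed at 0 in both groups. The FAM46C and FAM46A sums together were 7.22 FPKM in BB608 and 13.4 FPKM in DMSO, against 28.1 FPKM in BB608 and 30.8 FPKM in DMSO for the ZFP36 family.

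**Figure D4:**
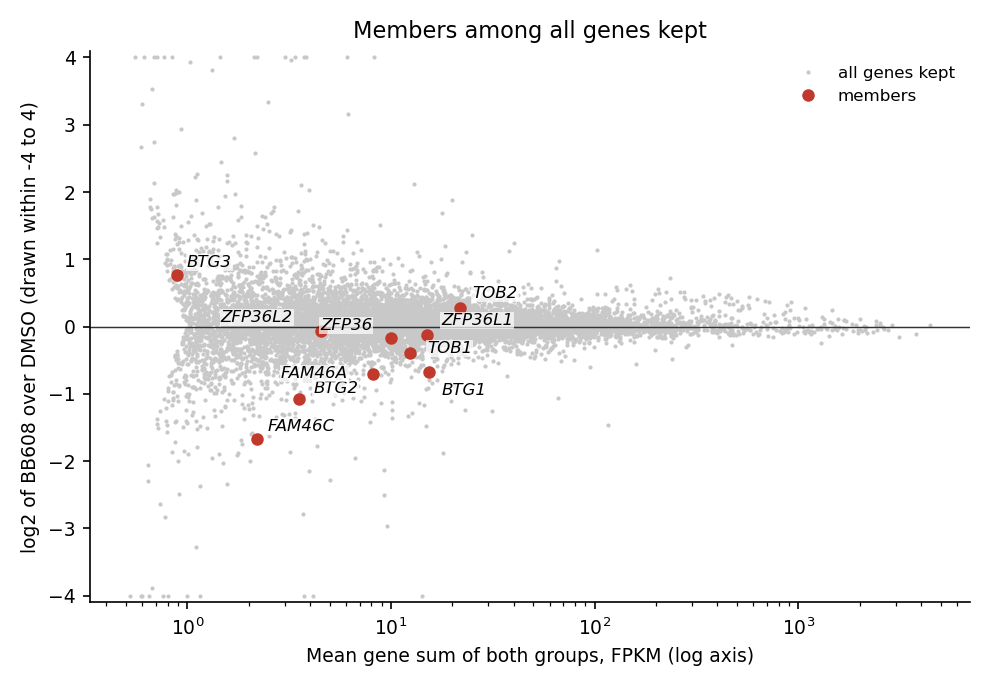
Log2 fold of BB608 over DMSO against mean gene sum (FPKM, log axis) for 10850 genes in grey, with the 10 genes in red. FAM46C and BTG2 lie in the lower part of the cloud at their level, BTG3 lies where folds of all genes scatter widely, and the ZFP36 genes lie within it.

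Since FAM46C and BTG2 were the genes with a called coding sequence, the 250 bases before their start sites are printed here, from RefSeq in GRCh38.p14. The BTG2 promoter is chr1:203305269-203305518 on the plus strand and the FAM46C promoter is chr1:117605798-117606047 on the plus strand. Capitals mark matches, on either strand, to the EGR motif GCGNGGGCG and the GC box GGGCGG, which can overlap.
BTG2: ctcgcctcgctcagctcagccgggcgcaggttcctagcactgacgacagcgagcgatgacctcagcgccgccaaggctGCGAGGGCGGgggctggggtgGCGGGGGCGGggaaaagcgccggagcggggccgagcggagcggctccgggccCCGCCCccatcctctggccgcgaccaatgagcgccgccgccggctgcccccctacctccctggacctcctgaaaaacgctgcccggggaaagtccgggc
FAM46C: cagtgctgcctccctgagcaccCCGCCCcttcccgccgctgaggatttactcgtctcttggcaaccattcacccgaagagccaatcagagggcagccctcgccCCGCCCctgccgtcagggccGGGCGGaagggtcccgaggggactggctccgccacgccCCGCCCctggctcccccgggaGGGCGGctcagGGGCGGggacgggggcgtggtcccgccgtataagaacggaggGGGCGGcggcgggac
Both are rich in G and C, 74.8% for BTG2 and 74.0% for FAM46C. The GC box was in a promoter of 8 of the 9 genes with a RefSeq promoter entry, and FAM46C held 7 copies of it. It is in 42.6% of 35114 promoters. Here and below the 9 genes are counted by gene and the background by promoter, so the shares are not like for like. TOB1 and ZFP36L1 each have a second promoter entry, and the second entry of TOB1 holds no GC box. BTG2 alone held the EGR motif, which is in 8.41% of promoters. BTG1 and FAM46A held a TATA box, TATAAA, which is in 10.7% of promoters. ZFP36L1 alone held the full cyclic AMP response element TGACGTCA, at 1.65% of promoters. None of the 9 held the AP-1 site TGANTCA, at 6.57% of promoters, the STAT site TTCNNNGAA, at 6.57%, the ATF4 and CHOP composite TGATGNAA, at 3.14%, a CArG box, at 1.16%, or an NF-kB site, at 5.21%. These are counts of letters in a 250-base window, and no match says only that these letters are not in it.

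The core TATTTAT was also present, without the T on both sides that makes the longer element, in the 3′ untranslated regions of BTG1, BTG2, BTG3, TOB2 and FAM46A, against 30.2% of all genes. The BTG2 site lies at chr1:203307528-203307556 on the plus strand and the FAM46A site at chr6:81747016-81747044 on the minus strand of GRCh38, shown to compare with the ZFP36 sites above.
BTG2: aaatgaagagcTATTTATatatattattt
FAM46A: attttcttaaaTATTTATattcttttctt
TOB1 and FAM46C held neither element, FAM46C over 4328 annotated bases. The ZFP36 genes, which hold the longer element, had folds between -0.17 and -0.06, and FAM46C had the lowest fold. These genes were chosen with their folds known, and a link between element and fold was not tested.

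The genes of the machinery that these regulators recruit or oppose had medians near 0. None was called here or in the machinery lists below. Only 1.10% of all 10850 genes were called, so nothing is read from the absence of calls in lists of this size. Of the CCR4-NOT complex, 12 subunits were measured, with a median log2 fold of 0.14, 3 lower and 9 higher, and 0 with a called coding sequence, beside 119 or 1.10% of all 10850 genes. The split depended on the processing, with 0 of 12 lower by the most abundant coding sequence and 4 of 12 after quantile normalization. The scaffold CNOT1 had 169 FPKM in BB608 and 153 FPKM in DMSO, and the catalytic subunit CNOT7 had 60.5 FPKM in BB608 and 55.0 FPKM in DMSO. Its paralog CNOT8 had the lowest gene-sum fold of the complex, -0.23, at 27.9 FPKM in BB608 and 32.6 FPKM in DMSO, but 0.05 by its most abundant coding sequence. C2orf29, the subunit now named CNOT11, had the highest gene-sum fold, 0.29, at 14.9 FPKM in BB608 and 12.1 FPKM in DMSO. Thus the log2 folds of the binding partners, though not always their differences in FPKM, were smaller in size than those of BTG2 and BTG1. The difference between these folds was not tested.

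Other deadenylases and poly(A) binding proteins, 14 genes, had a median log2 fold of 0.01, with 5 lower, 9 higher and 0 called. This split turned with the processing, to 10 of 14 lower after quantile normalization and 8 of 14 lower by the most abundant coding sequence, so no direction is read from it. The lowest was CCRN4L, the circadian gene of nocturnin, which belongs to the deadenylase family, at 4.27 FPKM in BB608 and 6.51 FPKM in DMSO, for whose leading coding sequence the authors' deposited table gives p = 0.0127 and q = 0.986. The highest was PABPC1L, at 13.5 FPKM in BB608 and 11.4 FPKM in DMSO. The other terminal uridylyl and adenylyl transferases, 9 genes that share the nucleotidyltransferase activity of FAM46 proteins, had a median of 0.10 with 0 called. They ran from MTPAP, the mitochondrial poly(A) polymerase, at 22.6 FPKM in BB608 and 23.8 FPKM in DMSO, to PAPD5, at 5.03 FPKM in BB608 and 3.59 FPKM in DMSO.

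Decapping and 5′ to 3′ decay factors, 15 genes, had a median of 0.04, and the exosome with the Ski complex, 17 genes, had a median of 0.06, with 0 called in either list. In the first list the folds ran from LSM4, at 9.23 FPKM in BB608 and 11.3 FPKM in DMSO, to LSM2, at 2.31 FPKM in BB608 and 0.992 FPKM in DMSO. In the second they ran from DIS3L2, at 17.1 FPKM in BB608 and 18.4 FPKM in DMSO, to EXOSC7, at 17.2 FPKM in BB608 and 13.9 FPKM in DMSO. Other proteins that bind AU-rich elements or stem-loops, 17 genes, had a median of 0.00 with 0 called. Among them ELAVL1, which stabilises AU-rich mRNAs, had 49.0 FPKM in BB608 and 44.6 FPKM in DMSO. ZC3H12A, the stem-loop endonuclease Regnase-1, had 1.20 FPKM in BB608 and 2.83 FPKM in DMSO, with an implied SE of 1.04 around a log2 fold of -1.23, and HNRNPAB had the highest fold, 0.32. The p38, MK2, PP2A and 14-3-3 genes, whose products phosphorylate, dephosphorylate or bind ZFP36, were 17 genes with a median of 0.04 and 0 called. They ran from MAP2K6, at 1.97 FPKM in BB608 and 2.70 FPKM in DMSO, to the 14-3-3 gene YWHAQ, at 85.8 FPKM in BB608 and 68.3 FPKM in DMSO, and MAPKAPK2, the MK2 gene, had 15.3 FPKM in BB608 and 14.6 FPKM in DMSO.

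**Figure D5:**
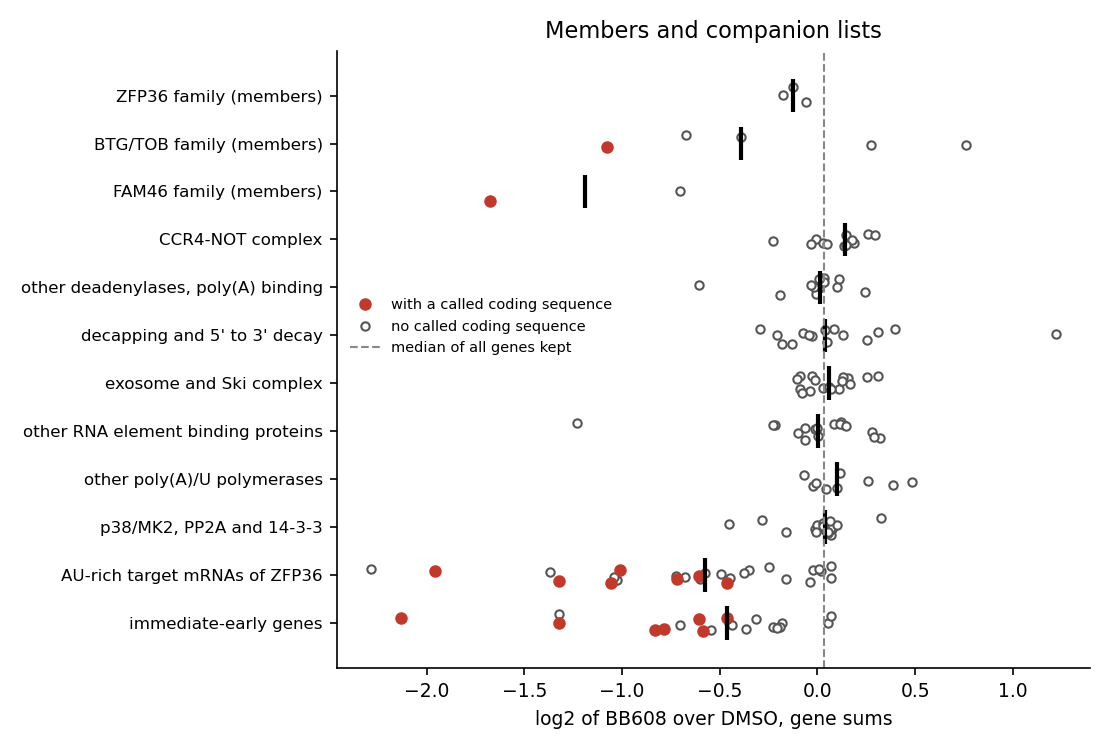
Log2 fold of BB608 over DMSO of the gene sums, 1 point per gene, for the 3 families and the companion lists, with the median of each marked; filled points have a coding sequence called in the authors' deposited table. The AU-rich targets and the immediate-early genes centre at -0.58 and -0.46, and the CCR4-NOT, decapping and exosome lists centre at 0.14, 0.04 and 0.06.

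The mRNAs known in other cells as AU-rich targets of ZFP36 were mostly lower in BB608. Of 27 measured, 23 were lower and 4 were higher, and their median log2 fold was -0.58 where that of all genes was 0.03. Of 28 tested targets, 7 were called lower and 0 higher in the authors' deposited table, beside 70 or 0.645% of all 10850 genes called lower. The list was written with earlier results of these data known, so nothing is read from its difference from all genes. PTGS2, the inducible cyclooxygenase, had 2.48 FPKM in BB608 and 8.16 FPKM in DMSO for its called coding sequence, a log2 fold of -1.72 with an implied SE of 0.21. IL8, a neutrophil-attracting chemokine, had 36.0 FPKM in BB608 and 77.2 FPKM in DMSO, a log2 fold of -1.10 with an implied SE of 0.10. These are inflammatory mediators, and the immune checkpoint ligand CD274 lay with them at 1.52 FPKM in BB608 and 3.07 FPKM in DMSO. The kinase gene PIM1 had 6.77 FPKM in BB608 and 11.1 FPKM in DMSO, and the phosphatase gene DUSP1 had 6.91 FPKM in BB608 and 17.3 FPKM in DMSO. FOS was called in 1 of 8 tested coding sequences, at 15.5 FPKM in BB608 and 36.6 FPKM in DMSO, while its gene sum was 74.8 FPKM in BB608 and 114 FPKM in DMSO. The seventh called target was IER3. TNF, the first known target of ZFP36, stood at 0.263 FPKM in BB608 and 0.761 FPKM in DMSO, and the authors' deposited table gives p = 0.0009 and q = 0.187.

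Beside these targets, the ZFP36 genes had gene-sum folds of -0.17, -0.13 and -0.06 and no call. By the most abundant coding sequence, the measure nearer to that given for PTGS2 and IL8, ZFP36, ZFP36L1 and ZFP36L2 had -0.17, -0.40 and -0.06. Immediate-early genes, the class to which BTG2 and ZFP36 belong, gave a like picture, with 19 of 21 lower, a median of -0.46 and 7 of 22 tested genes called lower. That list was likewise written with earlier results known, so its difference from all genes is not read either. The lists share 4 genes, DUSP1, FOS, IER3 and MYC, and without these 20 of 23 AU-rich targets were lower with a median of -0.58. The called immediate-early genes included ATF3, at a gene sum of 3.45 FPKM in BB608 and 15.1 FPKM in DMSO, DUSP5, at 11.4 FPKM in BB608 and 20.3 FPKM in DMSO, CTGF, at 7.35 FPKM in BB608 and 12.7 FPKM in DMSO, and JUN, at 23.0 FPKM in BB608 and 34.6 FPKM in DMSO. Set beside them, BTG2 at -1.08 lay below the median of its class and ZFP36 at -0.17 above it.

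The presence of the longer element across all genes went with little difference in the median fold. Among kept genes with a 3′ untranslated region in GENCODE 29, those with 1 copy of TTATTTATT, 773 genes, had a median log2 fold of 0.03, those with more copies, 223 genes, had 0.00, and those with none, 9513 genes, had 0.04. The authors' deposited table called 12 of these 773 genes lower and 2 higher, 4 of the 223 genes lower and 0 higher, and 54 of the 9513 genes lower and 47 higher. As a share of its class, calls of lower genes were thus more frequent with the element than without it, and calls of higher genes less frequent. Within the target list, the 17 measured targets with the element had a median of -0.68 and the 10 without it a median of -0.41. The 3 ZFP36 genes, each with 1 copy, had a median of -0.13. Genes with more copies also have longer 3′ untranslated regions, a median of 3997 bases against 1247 bases without a copy. None of these differences was tested.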

How the data were processed

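Total RNA was extracted with Trizol and sequenced from stranded libraries after removal of ribosomal RNA, per the labels' protocols. TopHat2 2.0.11, Cufflinks 2.2.1, Cuffdiff and the build hg19 are named in the submitters' processing notes. The annotation used has no mention in the labels or notes read here. The authors deposited 1 table in which each coding sequence has an FPKM value for BB608 and an FPKM value for DMSO, each pooled over 3 libraries. The deposited table also holds a log2 fold, used here as a score because some of its cells are extreme or unreadable, a p-value, a q-value and a test statistic, which is also a score. Its column names call both groups a subset, which no source used here explains, so the number of libraries behind each value is taken from the series text and was not checked.

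The planned edgeR or limma fits on values per library could not be made, so the authors' q is the test and the folds are descriptions. Sequencing depth is unknown, since pooled FPKM carries no read counts. The log2 ratio of the FPKM values matched the deposited fold to within 4.72e-05, and a Benjamini-Hochberg adjustment of the p-values over 34474 tested rows matched the deposited q to within 5.23e-07. For the implied SE, the fold was divided by the product of the statistic and 1.73, the median ratio of the normal quantile of p to the statistic over 32981 rows, with quartiles of 1.64 and 1.78. It is approximate and covers only the spread in the authors' model. Rows at the smallest p, among them those of FAM46C and BTG2, were left out of that ratio. As for every row, their implied SE uses their statistic and the common ratio but not their own p. The implied SE is not given where a group is near 0.

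The 10 genes, the companion lists and the tests were chosen with earlier results of these data known. Named genes were the 10 and their relatives, up to 6 called genes per list, the lowest and highest fold of a list without calls, and 9 genes fixed by name. IER3 falls outside this rule and was named after its value was seen. Rows with merged gene names (43) or names turned into dates (192) were left out of the background of 10850 genes. They remain in the 20660 gene names and in the total FPKM. The listed names CNOT9 and CNOT11 are newer names of RQCD1 and C2orf29. Promoters came from RefSeq in GRCh38.p14, matched by symbol or synonym for 9 of 10 genes, with ZFP36L2 missing. Sites came from the longest 3′ untranslated region per gene in GENCODE 29, matched for 10509 of 10850 genes, and coordinates were not converted between builds. The scripts were tested on simulated data and used Python 3.11.15, pandas 2.3.3, NumPy 2.4.6, SciPy 1.17.1 and matplotlib 3.10.9. Alternatives were other pseudocounts, filters, scalings, ways of summing coding sequences and call rules.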

Additional observations from a re-analysis of the deposited data

How the results depend on the processing

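Of 69 alternative values for the folds of the 10 genes, 0 changed sign and 64 moved by less than 1 implied SE. With a pseudocount of 1 FPKM, which understates folds at low levels, FAM46C had -1.09 and BTG2 -0.82. By the most abundant tested coding sequence alone, ZFP36L1 had -0.40 and BTG3 2.26, and BTG3 also had 2.26 over tested coding sequences summed. Summing coding sequences of at least 1 FPKM gave ZFP36 -0.29 and left BTG3 without a value. The call rule moved the counts most. At an unadjusted p under 0.05 there were 1140 coding sequences and 5 of these genes, and with an absolute log2 fold of at least 1 there were 40, against 122 and 2 by the authors' q. A minimum mean of 1 FPKM gave 121 calls of 26180 tested and 2 of 14 for these genes. The medians of the deadenylase, decapping and AU-rich binding lists lay so near 0 that they changed sign with the setting, between -0.05 and 0.04. No paired analysis was possible because each group has 1 pooled value, and for the same reason no library could be left out. Depth limits what can be said of BTG3, FAM46C and FAM46B, whose values lie near 1 FPKM.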
